A study of Mus musculus with 36 samples.

Results

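The genes described here encode the dystrophin glycoprotein complex and the caveolae of the mouse heart: dystrophin (Dmd), dystroglycan (Dag1), the alpha-, beta- and delta-sarcoglycans (Sgca, Sgcb, Sgcd), dysferlin (Dysf) and caveolins 1, 2 and 3 (Cav1, Cav2, Cav3). They were taken by gene symbol from a table of Affymetrix Mouse430 2.0 arrays, and all 9 were found, among 20701 genes with a gene ID on the array. Together they had 18 probe sets (a probe set is the group of short oligonucleotides that reads 1 transcript region): 4 for Dmd, 4 for Dag1, 3 for Sgcb, 2 for Cav2 and 1 for each of the others. Each gene was read first from its probe set with the highest mean over all arrays, called its lead probe set.

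The arrays measured polyadenylated RNA of whole hearts of OF1 (Oncins France 1) mice at 12 stages: 10 embryonic ones, 1 day apart and running up from E10.5 until E19.5, and hearts of young and of old adults, with 3 arrays per stage and 36 in all. The young adults' age was 10 weeks. For the old adults the series' design text gives 14 months and the study's methods 10 months. At E10.5 and E11.5 all 3 arrays (mf1, mf2 and mf3) held mixed males and females. From E12.5 on, 1 array held female, 1 male and 1 pooled (mixed) hearts. All values are log2 intensities that the authors normalised by RMA, so a difference of 1 is a 2-fold change, and levels of different genes or probe sets cannot be ranked against each other. In whole hearts, fewer cells of a type and less RNA per cell cannot be told apart.

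In striated muscle, dystrophin ties the actin cytoskeleton to dystroglycan, which spans the membrane and binds laminin outside the cell. The sarcoglycans form a subcomplex that stabilises this link, and loss of its members causes muscular dystrophy and cardiomyopathy. Caveolae are flask-shaped pits of the plasma membrane: caveolin-1 and caveolin-2 build them in endothelium, smooth muscle and fat, and caveolin-3 in muscle cells. Dysferlin takes part in the resealing of torn muscle membranes.

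Across the arrays, the medians of all 45101 probe sets ranged from 4.002 to 4.196, and replicates of a stage correlated at r = 0.969 to 0.996 across probe sets. The labels' extraction text names liver. Cardiomyocyte markers had a stage mean above 5 at every stage in 5 of 5 measured genes (Tnnt2, Actn2, Ryr2, Mybpc3 and Ttn), and the liver markers Alb, Afp, Apoa1 and Ttr had none above 5 at any stage. The spiked-in hybridization controls, which should be equal, rose from a mean of 9.90 at E10.5 (arrays 9.68 to 10.3) to 12.2 in young adult hearts (12.0 to 12.4). The prefix of the sample titles changes within E16.5, but the labels do not call this a batch.

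Of the 18 probe sets, 7 were higher and 3 lower in young adult than in E10.5 hearts at an adjusted p under 0.05 (limma over all 36 arrays, Benjamini-Hochberg over all probe sets), against 63% of all probe sets and 73.8% of the 20685 with a stage mean above 5, in either direction. E14.5 against E10.5 gave 4 higher and 3 lower, against 26.3% of all probe sets and 44.4% of those above 5. Without E10.5 mf1, E10.5 mf2, the female E14.5 or the male E14.5 array, that count was 4 in place of 7, and the share of all probe sets called was 16.4% to 18.8%. E19.5 against E14.5 gave 5 higher and 0 lower, with no probe set lower at an unadjusted p under 0.05 either. There the background was 13.6% of all probe sets and 24.2% of those above 5. Young adult against E19.5 gave 3 higher and 2 lower, against 29.1% and 45.8%. Old adult against young adult gave 1 higher and 0 lower (4 higher and 1 lower at an unadjusted p under 0.05), against 6.96% and 10.5%. In every comparison but E19.5 against E14.5, the members were called no more often than the probe sets above 5.

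The median log2 change of the 9 lead probe sets was 0.54 in young adult against E10.5, where the median of all probe sets above 5 was -0.41. It was 0.25 against -0.08 in E14.5 against E10.5, and 0.62 against -0.09 in E19.5 against E14.5. It was 0.09 against -0.13 in young adult against E19.5 and 0.18 against 0.12 in old against young adult. Shifting every array so that its brighter probe sets (those averaging above 5 across the series) shared 1 median, called median centring here, moved the median of all probe sets by 0.53 in young adult against E10.5 and by 0.20, 0.14, 0.18 and -0.14 in the other comparisons, in the order above. With that centring, 79.5% of the calls in young adult against E10.5 were higher, in place of 57%, and 66%, 58.2%, 67.2% and 31.1% in the others, in place of 42.3%, 37.6%, 46.6% and 55%.

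**Figure D1:**
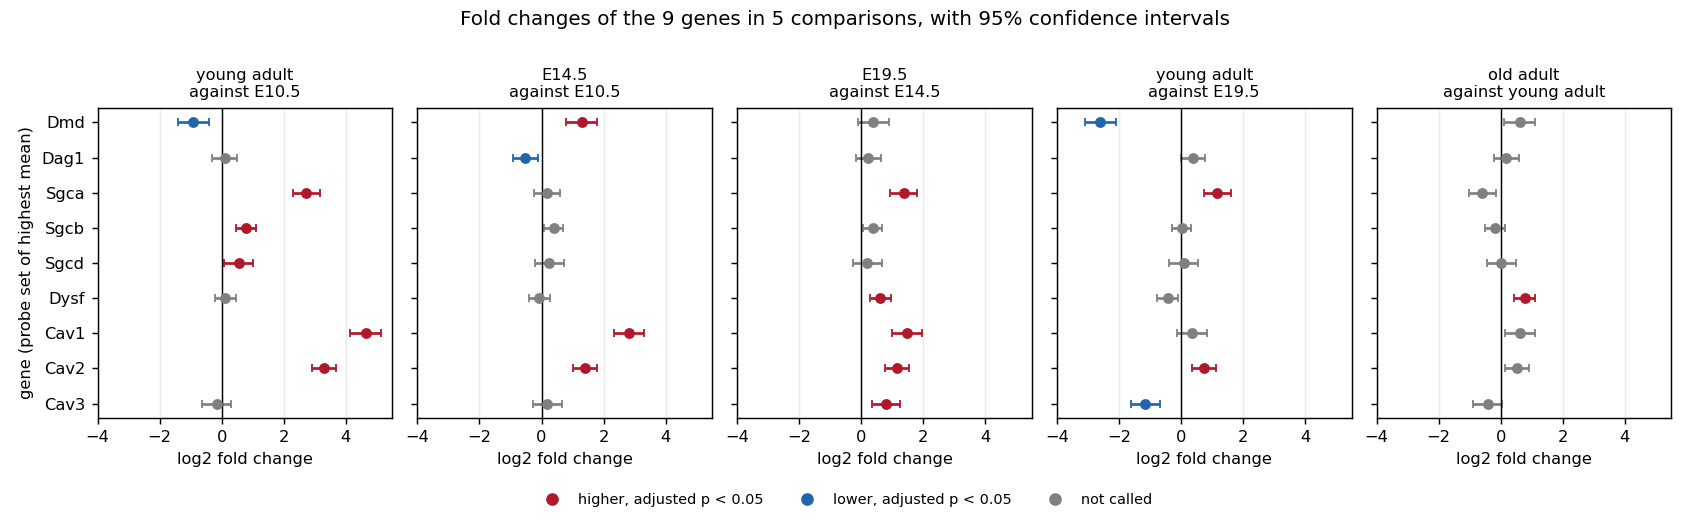
Log2 fold change (x axis) of the lead probe set of each of the 9 genes (y axis) in 5 comparisons, with bars for the 95% confidence interval of the limma fit and red, blue and grey points for higher, lower and not called. Cav1, at 4.63, and Cav2, at 3.29, lie farthest right in young adult against E10.5, and Dmd, at -2.60, lies farthest left in young adult against E19.5.

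Caveolin-1 and caveolin-2 rose from E10.5 to the adult heart, with a higher mean than the day before in 8 of 9 embryonic steps for each. Cav1 (1449145_a_at) was 24.8-fold higher in young adult than in E10.5 hearts, and Cav2 (1417327_at) was 9.75-fold higher. The levels of Cav1 at E10.5 were 7.14, 6.95 and 7.00 on the 3 arrays, and at E14.5 they were 9.71 in the female, 9.58 in the male and 10.28 in the mixed sample. They were 11.57, 11.62 and 10.77 at E19.5, 11.93, 11.25 and 11.82 in young adult and 12.05, 12.03 and 12.79 in old adult hearts, again in the order female, male, mixed. All E14.5 arrays lay above all E10.5 arrays and all E19.5 arrays above all E14.5 arrays, while the E19.5 and young adult arrays overlapped. Between E10.5 and E14.5 Cav1 rose by 2.83 ± 0.24 on the log2 scale (SE here and below, adjusted p = 2.7e-10), and by E19.5 it had gained another 1.46 ± 0.24 (adjusted p = 5.4e-05). Its further 0.34 ± 0.24 up to young adult did not pass (adjusted p = 0.31). With the hybridization controls as a covariate the last step was 0.81 (adjusted p = 0.018).

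Cav2, which encodes the partner of caveolin-1 in caveolae, had levels of 6.33, 6.52 and 6.10 at E10.5 and 7.57, 7.65 and 7.92 at E14.5. It stood at 9.01, 8.91 and 8.66 at E19.5, 9.69, 9.23 and 9.89 in young adult and 9.97, 10.05 and 10.35 in old adult hearts. Each of these 5 groups lay wholly above the one before it. The steps were 1.39 ± 0.19 (adjusted p = 2e-06), 1.15 ± 0.19 (adjusted p = 5.9e-05) and 0.74 ± 0.19 (adjusted p = 0.0028) up to young adult, so Cav2, unlike Cav1, passed the test after E19.5 as well; the difference between these last steps of the pair was not tested. The second Cav2 probe set (1425955_at) was dimmer, from 3.90 at E10.5 to 5.19 in young adult hearts, and also rose (1.29 ± 0.18, adjusted p = 5.7e-07).

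Ranked by level, the 12 stages stood in the same order for Cav1 and Cav2: E10.5 to E15.5 by day, then E17.5, E16.5, E18.5, E19.5, young adult and old adult. Of the 11 pairs of neighbours in that order, the arrays of 6 overlapped for Cav1 and of 6 for Cav2. For both, the steps without overlap included E11.5 to E12.5, E12.5 to E13.5, E13.5 to E14.5 and young to old adult. Over the 12 stage means the pair correlated at r = 0.98, and over the deviations of the 36 arrays from their stage means at r = 0.79. These are descriptions over arrays that share 1 normalization. On the mixed arrays of E17.5, E18.5 and E19.5 both genes were below the female and the male array, at 10.19, 10.58 and 10.77 for Cav1 and 7.86, 8.19 and 8.66 for Cav2. These mixed arrays also had the highest hybridization control levels of their stages, at 12.01, 11.56 and 11.39. The part of such differences between arrays in the low values was not tested.

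Cav2 and Cav1 are direct neighbours on chromosome 6 (no other gene of the RefSeq table of GRCm38.p6 lies between their starts), and Cav3 lies elsewhere on that chromosome. The 250 bases before the first annotated start of each gene (RefSeq, GRCm38.p6, 5′ to 3′) are shown because the pair rose together and Cav3 did not follow. Capitals mark matches, on either strand, to the E-box (CANNTG), the GC box (GGGCGG), the TATA box (TATAAA), the GATA site (AGATAA), the CCAAT box (CCAAT), the MEF2 site and the CArG box.
Cav1 promoter, chr6:17306085-17306334, plus strand: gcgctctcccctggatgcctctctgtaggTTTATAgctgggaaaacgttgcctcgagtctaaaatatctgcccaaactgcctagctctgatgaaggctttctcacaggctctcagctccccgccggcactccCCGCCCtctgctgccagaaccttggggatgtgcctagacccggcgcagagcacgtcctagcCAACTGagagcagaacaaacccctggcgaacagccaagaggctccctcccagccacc
Cav2 promoter, chr6:17280935-17281184, plus strand: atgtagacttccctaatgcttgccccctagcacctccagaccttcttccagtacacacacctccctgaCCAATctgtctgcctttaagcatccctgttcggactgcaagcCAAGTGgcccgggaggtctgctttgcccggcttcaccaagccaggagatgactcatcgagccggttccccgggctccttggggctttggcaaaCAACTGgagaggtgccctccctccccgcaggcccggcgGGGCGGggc
Cav3 promoter, chr6:112459255-112459504, plus strand: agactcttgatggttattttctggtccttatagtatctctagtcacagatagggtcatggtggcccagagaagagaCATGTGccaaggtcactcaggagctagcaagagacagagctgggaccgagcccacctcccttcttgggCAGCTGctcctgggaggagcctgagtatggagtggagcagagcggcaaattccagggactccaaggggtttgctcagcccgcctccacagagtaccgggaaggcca
The Cav1 window held an E-box, a GC box and a TATA box match far from the start (221 to 216 bases before it). The Cav2 window held E-boxes, a GC box and a CCAAT box, and the Cav3 window E-boxes alone. E-boxes stood in 66.2% of all 32851 promoter windows of this length, GC boxes in 32.7%, CCAAT boxes in 33.8% and TATA boxes in 12.4%. A second annotated start of Cav1, not shown, had an E-box alone.

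Endothelial markers did not follow Cav1 at the first step, while some markers of other cell types did. Of 6 endothelial markers (Pecam1, Cdh5, Kdr, Tie1, Tek and Emcn), 0 were higher and 2 lower at E14.5 than at E10.5, with a median change of -0.14. From E14.5 to E19.5, 3 were higher and 0 lower (median 0.64), and in young adult against E10.5 4 were higher and 0 lower (median 1.12). Their mean level was 6.23 at E10.5 (arrays 5.84 to 6.52), 5.80 at E14.5 (5.52 to 6.12), 7.08 in young adult (7.00 to 7.16) and 7.76 in old adult hearts (7.47 to 8.16). The 4 measured adipocyte markers (Adipoq, Cidec, Cfd and Lep) were all higher in young adult than in E10.5 hearts, at a mean level of 4.70 (arrays 3.86 to 5.49) against 2.43 (2.36 to 2.53), and 0 of 4 changed between E10.5 and E14.5 or between E14.5 and E19.5. Of 5 fibroblast markers, 3 (Col1a1, Dcn and Lum) were higher and 0 lower at E14.5 than at E10.5 (median 2.29). There their mean level went from 6.96 (arrays 6.81 to 7.10) to 8.68 (8.52 to 8.88). From E14.5 to E19.5, 1 fibroblast marker was higher and 2 were lower (median -0.12). In young adult against E10.5, 2 were higher and 2 lower (median -0.16). Of 4 macrophage markers, 3 were higher at E14.5 than at E10.5 (median 0.98). From E14.5 to E19.5, 0 of these 4 changed, and all 4 were higher in young adult than in E10.5 hearts (median 2.49). Of 5 smooth muscle markers, 2 (Myh11 and Pdgfrb) were higher and 2 (Tagln and Cnn1) lower at E14.5 than at E10.5. From E10.5 to young adult, Myh11 and Pdgfrb rose and Acta2 and Cnn1 fell. The 4 erythroid markers, among them the embryonic globin genes Hbb-y and Hba-x, went the other way in the embryo, from a mean level of 8.68 at E10.5 (arrays 8.22 to 8.97) to 7.11 at E14.5 (6.78 to 7.52) and 3.99 at E19.5 (3.88 to 4.05), and stood at 4.02 (3.81 to 4.23) in young adult hearts. Of these, 0 were higher and 3 lower in young adult than in E10.5 hearts (median -4.40). The part of these cell types in the changes of the caveolins, or of the other members over the same stages, was not tested.

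**Figure D2:**
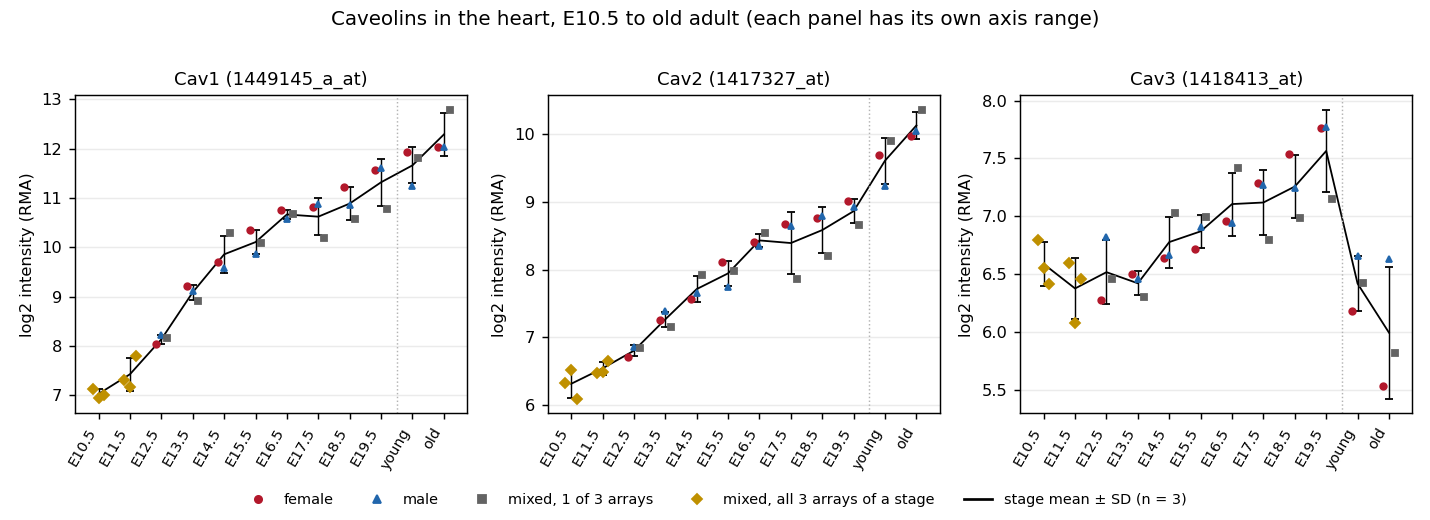
Log2 intensity (y axis) of the lead probe sets of Cav1, Cav2 and Cav3 at the 12 stages (x axis; young and old are the adults), with 1 point per array by sex label and a line through the stage means with bars of 1 SD (n = 3). Cav1 climbs from 7.03 to 12.29 and Cav2 from 6.32 to 10.12, while Cav3 peaks at 7.56 at E19.5 and is lower in adults.

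Caveolin-3, the muscle form, followed another course: a late embryonic rise and a fall after birth. Cav3 (1418413_at) stood at 6.79, 6.56 and 6.41 on the E10.5 arrays and at 6.64, 6.66 and 7.03 at E14.5, which overlapped. It reached 7.76 in the female, 7.78 in the male and 7.15 in the mixed sample at E19.5, and was back at 6.18, 6.65 and 6.42 in young adult hearts. All young adult arrays lay below all E19.5 arrays. The fall was 1.15 on the log2 scale (log2 change -1.15 ± 0.22, adjusted p = 0.00017), 2.21-fold. The rise from E14.5 to E19.5 was 0.79 ± 0.22 (adjusted p = 0.015). That call was lost without the female (0.72, adjusted p = 0.068) or male (0.73, adjusted p = 0.06) E14.5 array and without the female (0.69, adjusted p = 0.064) or male (0.68, adjusted p = 0.089) E19.5 array. Young adult and E10.5 hearts differed by -0.17 (95% interval -0.62 to 0.29, adjusted p = 0.51), a difference whose sign turned under quantile normalization, median centring and the control covariate. The arrays of all 11 neighbouring stages in the order of Cav3 levels overlapped.

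The cardiomyocyte markers had their highest mean level at E19.5 as well, 11.46 (arrays 11.32 to 11.55), and 10.89 (10.82 to 10.94) in young adult hearts, with 0 of 5 higher and 3 lower between these stages (median -0.42). In old adult hearts the markers stood at 11.14 (arrays 10.85 to 11.53), while Cav3 had its lowest mean there, 5.99 (-0.42 from young adult, adjusted p = 0.25). The part of the cardiomyocyte markers in the fall of Cav3 was not tested.

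Dystrophin gave different answers by probe set. The lead Dmd probe set (1443315_at) rose in the embryo up to its highest mean of 7.63 at E16.5 and was lowest in adults. It stood at 5.88, 5.79 and 6.03 at E10.5 and at 7.19, 7.13 and 7.26 at E14.5, a rise of 1.29 ± 0.25 (adjusted p = 0.00021). It was at 7.72, 7.51 and 7.50 at E19.5, at 4.95, 4.46 and 5.52 in young adult and at 5.26, 6.34 and 5.15 in old adult hearts. The E14.5 arrays lay wholly above those of E10.5, and both groups of adult arrays wholly below those of E19.5, while young and old adults overlapped. From E19.5 to young adult it changed by -2.60 ± 0.25 (adjusted p = 9.7e-10), 6.06-fold lower. Against E10.5 the young adult level was 0.92 lower (log2 change -0.92 ± 0.25, adjusted p = 0.002), a call that was lost with median centring (-0.40, adjusted p = 0.11) and with the hybridization controls as a covariate (-0.08, adjusted p = 0.93).

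The other 3 Dmd probe sets did not share this pattern. 1448665_at had stage means between 6.02 (E17.5) and 6.85 (old adult), 1417307_at between 5.12 (E17.5) and 5.86 (old adult), and 1430320_at between 2.71 (E17.5) and 3.52 (old adult). None of the 3 passed the test in any of the 5 comparisons. Against young adult hearts, stage by stage, 1430320_at was lower at 4 embryonic stages, most at E17.5 (-0.68, adjusted p = 0.018). It had no stage mean above 3.52, below the study's level of 5. The probe sets 1448665_at and 1417307_at passed at 0 stages. From E19.5 to young adult the log2 changes of the 3 were 0.15 (95% interval -0.47 to 0.76), 0.26 (-0.18 to 0.71) and -0.07 (-0.53 to 0.39). Over the 12 stage means they correlated with the lead probe set at r = -0.27, -0.73 and -0.55. The table used here does not say which part of the Dmd transcripts each probe set reads, so no level of dystrophin RNA as a whole can be given.

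**Figure D3:**
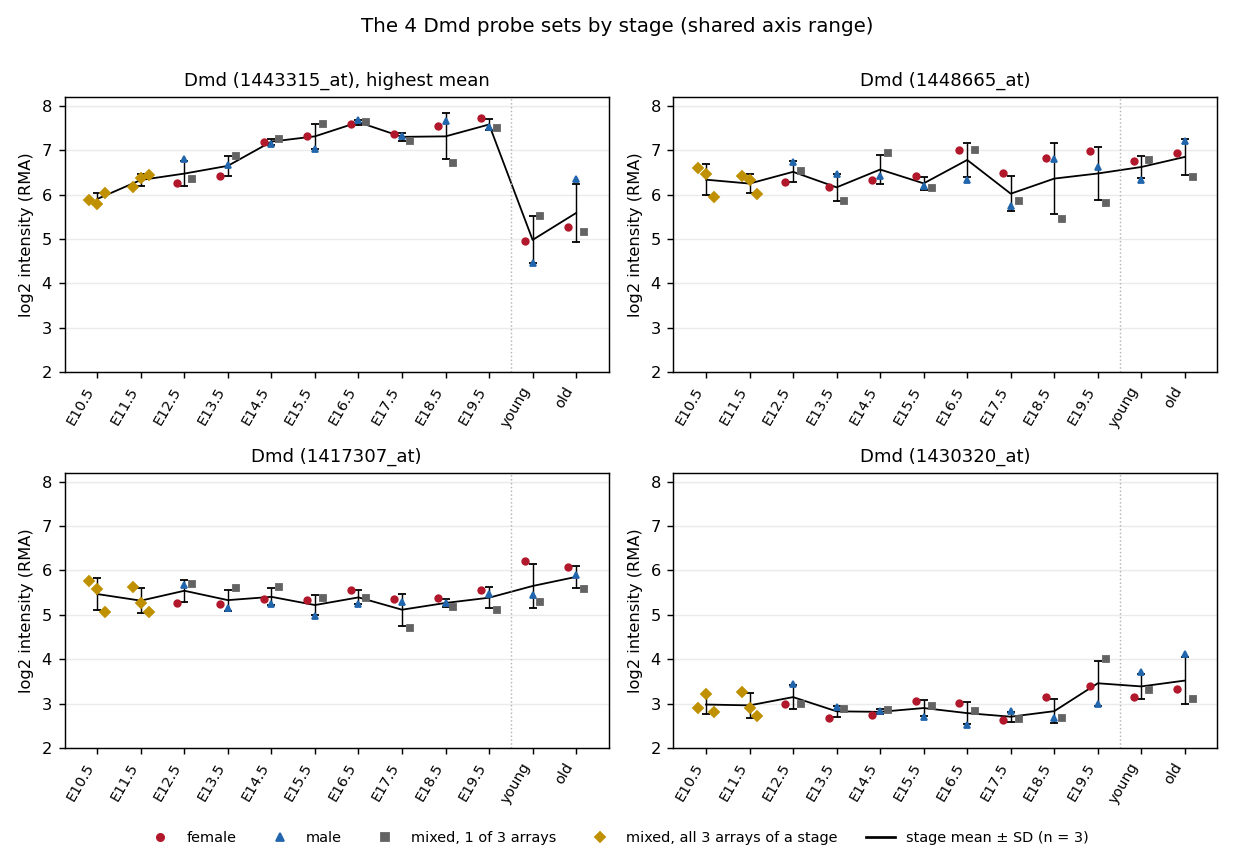
Log2 intensity (y axis, the same range in all panels) of the 4 Dmd probe sets at the 12 stages (x axis), with 1 point per array by sex label and a line through the stage means with bars of 1 SD (n = 3). The lead probe set drops from 7.58 at E19.5 to 4.98 in young adult hearts, and the stage means of each of the other 3 span at most 0.83.

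RefSeq's table gives 2 start sites for Dmd. The 250 bases before the upstream one are shown because they held a CArG box, the site that serum response factor binds in many muscle promoters, which occurs in 1.47% of all windows of this length; no other member had one. The letters are on the X chromosome of GRCm38.p6, 5′ to 3′, with capitals for the same motifs.
Dmd promoter, chrX:82948620-82948869, plus strand: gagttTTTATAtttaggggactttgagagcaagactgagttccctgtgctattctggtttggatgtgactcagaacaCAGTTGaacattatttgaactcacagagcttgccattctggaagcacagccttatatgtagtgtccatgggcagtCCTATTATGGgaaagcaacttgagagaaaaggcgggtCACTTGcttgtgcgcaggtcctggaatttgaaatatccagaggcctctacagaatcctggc
The window also held E-boxes and a TATA box match far from the start. The second start site had GC boxes alone.

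Dystroglycan, read from its lead probe set, was lower in the middle of embryonic life than in the young adult, but its other probe sets differed. The lead Dag1 probe set (1426778_at) ranged from 8.18 at E15.5 to 9.17 in old adult hearts, and the arrays of all 11 neighbours in its order overlapped. It stood at 9.05, 9.09 and 8.55 at E10.5, 8.15, 8.35 and 8.62 at E14.5 and 8.80, 8.97 and 9.18 in young adult hearts. The E14.5 level was lower than that of E10.5 (log2 change -0.52 ± 0.19, adjusted p = 0.044) with overlapping arrays, and the call was lost without E10.5 mf1 (-0.45, adjusted p = 0.16), E10.5 mf2 (-0.43, adjusted p = 0.2), the female E14.5 (-0.41, adjusted p = 0.2) or the male E14.5 array (-0.51, adjusted p = 0.11). Against young adult hearts Dag1 was lower, with no overlap of arrays, at E11.5 and at each of the 6 stages from E13.5 to E18.5, most at E15.5 (-0.81, adjusted p = 0.001) and E13.5 (-0.71, adjusted p = 0.0034). It stood at -0.39 (adjusted p = 0.14) at E19.5. Young adult and E10.5 hearts differed by 0.09 (95% interval -0.31 to 0.48). With median centring that difference was 0.62 (adjusted p = 0.0016). Of the other 3 Dag1 probe sets, 1423872_a_at and 1456131_x_at were lower both at E14.5 (-0.84 and -0.64) and in young adult (-0.40 and -0.67) than at E10.5. The names of 1456131_x_at and 1426779_x_at carry the suffix _x, with which Affymetrix marks probe sets that may also bind other transcripts. At E15.5 against young adult hearts, 1423872_a_at was lower (-0.44, adjusted p = 0.041) and 1456131_x_at did not pass (-0.21, adjusted p = 0.45). There 1426779_x_at was higher (0.34, adjusted p = 0.042), as it was at E17.5 (0.54, adjusted p = 0.0019). Over the 12 stage means 1426779_x_at correlated with the lead at r = -0.75.

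Alpha-dystroglycan binds laminin only once glycosylated, and all 12 listed glycosylation genes were measured. Between E10.5 and young adult 3 rose and 6 fell (median -0.43), close to the background of that comparison, where 73.8% of the probe sets above 5 were called and their median was -0.41. Pomt2 (0.82, adjusted p = 0.00015) and Pomt1 (0.52, adjusted p = 0.0079), which start the glycan, rose most. From E19.5 to young adult 4 rose and 3 fell, and from young to old adult Pomgnt1 rose (0.45, adjusted p = 0.02) and Pomt1 fell (-0.82, adjusted p = 0.0027).

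Alpha- and beta-sarcoglycan rose, the alpha form more and, by the lead probe sets, later. Sgca (1422654_at), the striated muscle form, was 6.61-fold higher in young adult than in E10.5 hearts (log2 change 2.73 ± 0.21, adjusted p = 2.4e-12). Its levels were 5.62, 5.66 and 5.66 at E10.5, 5.99, 5.72 and 5.77 at E14.5, and 7.01, 7.37 and 7.23 at E19.5. In young adult hearts it stood at 8.10, 8.57 and 8.47, and in old adult hearts at 7.85 in the female, 8.49 in the male and 7.03 in the mixed sample. Each group up to young adult lay wholly above the one before it, but the step from E10.5 to E14.5 was small, and the old adult arrays overlapped the young adult ones. The test gave 0.18 ± 0.21 (adjusted p = 0.58) for the step to E14.5, 1.38 ± 0.21 (adjusted p = 2.7e-05) for the step to E19.5 and 1.17 ± 0.21 (adjusted p = 6.5e-05) for the step to young adult. In its order of levels 9 of 11 neighbours overlapped, and the clear steps were E14.5 to E15.5 and E17.5 to E18.5.

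The 250 bases before the Sgca start are shown because Sgca rose most of the sarcoglycans studied here (RefSeq, GRCm38.p6, 5′ to 3′, capitals as above).
Sgca promoter, chr11:94976328-94976577, minus strand: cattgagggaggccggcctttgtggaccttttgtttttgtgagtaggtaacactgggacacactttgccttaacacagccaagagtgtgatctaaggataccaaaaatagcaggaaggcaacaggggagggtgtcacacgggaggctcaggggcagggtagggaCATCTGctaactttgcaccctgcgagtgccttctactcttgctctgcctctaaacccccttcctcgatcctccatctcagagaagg
The single match was an E-box, the motif bound by myogenic and other helix-loop-helix factors.

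Sgcb rose less and, on its lead probe set, mostly before E19.5, though its timing was not tested against that of Sgca. The lead probe set (1419668_at) stood at 6.28, 6.32 and 6.47 at E10.5, 6.76, 6.63 and 6.86 at E14.5, 7.19, 7.08 and 7.09 at E19.5 and 7.25, 7.21 and 6.96 in young adult hearts. The young adult arrays lay wholly above those of E10.5 and overlapped those of E19.5. The full change was 0.78 ± 0.15 (adjusted p = 6.6e-05). Neither embryonic step alone passed the test (0.39, adjusted p = 0.057, and 0.37, adjusted p = 0.11), although both did under quantile normalization (0.58, adjusted p = 0.0013, and 0.55, adjusted p = 0.0038). A second probe set (1436678_at) rose by 1.41 ± 0.24 (adjusted p = 9.2e-06) and the third (1419667_at) by 0.25 (95% interval -0.18 to 0.69). From E19.5 to young adult 1436678_at was at 0.58 (adjusted p = 0.071), where the lead was at 0.02 (adjusted p = 0.94). Sgcd (1450805_at) had no stage mean above 3.52, below the level of 5 that the study took as expressed. Its 0.54 ± 0.23 (adjusted p = 0.041) from E10.5 to young adult was lost without E10.5 mf1 (0.45, adjusted p = 0.13), E10.5 mf2 (0.51, adjusted p = 0.098) or the mixed young adult array (0.34, adjusted p = 0.24), and with quantile normalization (0.25, adjusted p = 0.39).

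**Figure D4:**
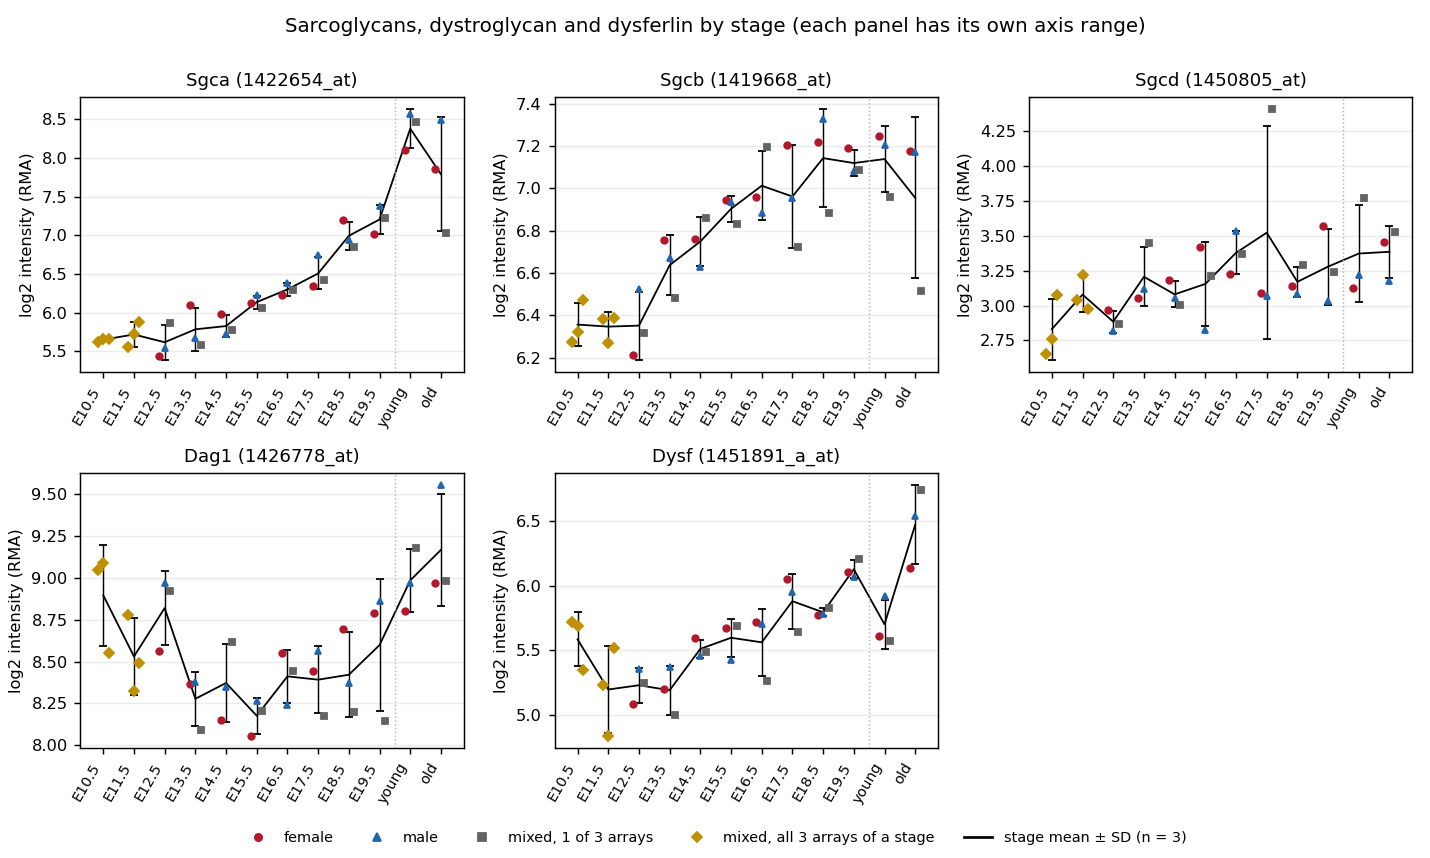
Log2 intensity (y axis, a range of its own in each panel) of the lead probe sets of Sgca, Sgcb, Sgcd, Dag1 and Dysf at the 12 stages (x axis), with 1 point per array by sex label and a line through the stage means with bars of 1 SD (n = 3). Sgca climbs from 5.65 at E10.5 to 8.38 in young adult hearts, whereas no stage mean of Sgcd is above 3.52.

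Of 14 other listed partners of the complex, 13 were measured (Sgcz was not analysed here), and 7 rose and 3 fell from E10.5 to young adult (median 0.47, against 0.19 over all probe sets and -0.41 over those above 5). Of all probe sets 63% were called there, and of those above 5 73.8%. The dystrobrevin gene Dtna rose by 1.06 (adjusted p = 0.00041), and sarcospan (Sspn) by 1.01 (adjusted p = 0.00061). The other dystrobrevin, Dtnb (-1.22, adjusted p = 8e-08), and epsilon-sarcoglycan (Sgce; -1.20, adjusted p = 3.3e-05), which many tissues express, fell most of the list. Utrophin (Utrn), the autosomal relative of dystrophin, was at a mean of 8.05 at E10.5 and 7.54 in young adult hearts (log2 change -0.51, adjusted p = 0.11), after a lower level at E14.5 (-0.78, adjusted p = 0.038).

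The caveola coat list gave 5 higher and 1 lower of 6 measured genes from E10.5 to young adult, with a median of 1.96 (Pacsin2 was not analysed here). In that comparison 73.8% of the probe sets above 5 were called, 25.3% higher and 48.5% lower. Ehd2, the ATPase at the neck of caveolae, rose by 2.77 (adjusted p = 4e-11) and the coat protein Cavin2 by 2.59 (adjusted p = 9.3e-17). Cavin3 fell by 0.88 (adjusted p = 0.0036). Cavin1, which caveola formation requires, rose by 1.07 (adjusted p = 0.0039), but was at -0.55 (adjusted p = 0.2) at the E14.5 step, where Cav1 and Cav2 had risen and Cavin2 rose by 1.63 (adjusted p = 1.3e-10). Cavin4, the muscle coat protein, rose between E14.5 and E19.5 (1.76, adjusted p = 2.2e-05), as Cav3 did, and after E19.5, where Cav3 fell, it stood at -0.03 (adjusted p = 0.95) in young adult hearts.

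Dysferlin changed late. Dysf (1451891_a_at) stood at 5.72, 5.69 and 5.34 at E10.5, 5.59, 5.45 and 5.49 at E14.5 and 6.10, 6.07 and 6.21 at E19.5. It was at 5.61, 5.92 and 5.57 in young adult and 6.14, 6.54 and 6.74 in old adult hearts. The E19.5 arrays lay above all those of E14.5 and the old adult arrays above all those of young adult, and the E10.5 and young adult arrays overlapped. The rise from E14.5 to E19.5 was 0.62 ± 0.17 (adjusted p = 0.011), and the change to young adult was -0.43 ± 0.17 (adjusted p = 0.053). At E11.5, E12.5 and E13.5 the means were 5.20, 5.23 and 5.19. These lay below young adult with no overlap of arrays (-0.50, -0.47 and -0.51, adjusted p = 0.012, 0.018 and 0.013). The step down from E10.5 was not tested. Of 7 measured membrane repair partners (Ano5 was not analysed here), 2 rose and 1 fell from E10.5 to young adult (median 0.30). The background there was 63% of all probe sets called and 73.8% of those above 5. Annexin A1 (Anxa1) rose by 2.05 (adjusted p = 4.5e-09) and S100a10, the partner of annexin A2, by 1.03 (adjusted p = 3.3e-06). Anxa6 fell by 1.08 (adjusted p = 3.1e-05), and Capn3, at -0.41 (adjusted p = 0.088), did not pass.

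**Figure D5:**
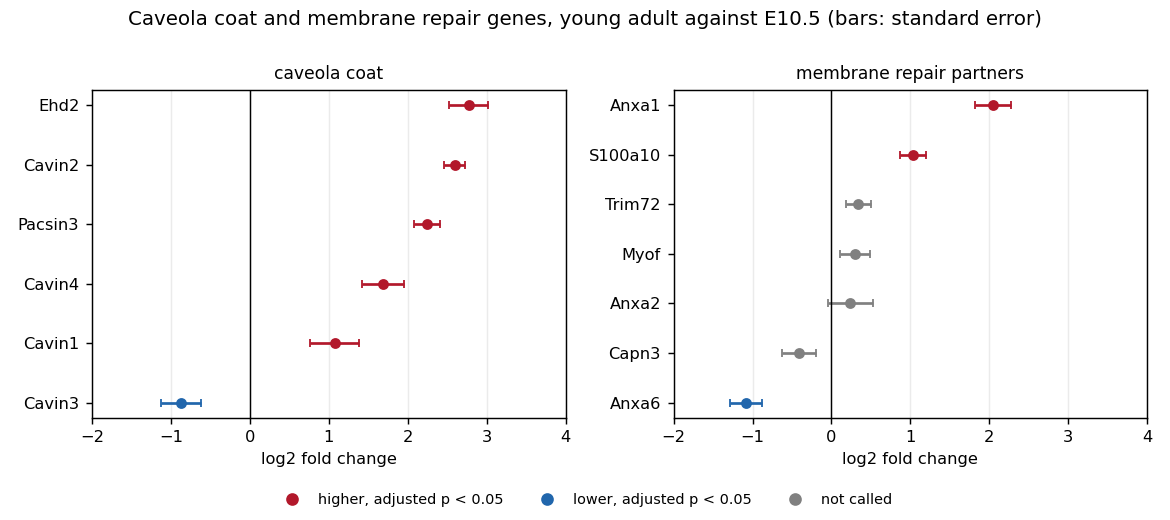
Log2 fold change in young adult against E10.5 hearts (x axis) of the measured genes of the caveola coat and membrane repair lists (y axis), with bars of 1 SE and red, blue and grey points for higher, lower and not called. Of the 6 caveola coat genes only Cavin3, at -0.88, lies to the left of 0, and of the membrane repair genes Anxa1, at 2.05, lies farthest right.

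With age, Dysf alone of the 18 member probe sets passed the test, at 0.77 ± 0.17 higher in old than in young adult hearts (1.71-fold, adjusted p = 0.0045). Fitted on the 6 adult arrays alone, its adjusted p was 0.16, and 6 of all 45101 probe sets were called. The old adult arrays of Cav1 and Cav2 also lay wholly above the young adult ones, at 0.63 (adjusted p = 0.1) and 0.52 (adjusted p = 0.088). Endothelial markers had 2 of 6 higher (Pecam1 and Kdr) and 0 lower in old adults (median 0.68). Smooth muscle markers had 0 of 5 higher and 3 lower (Acta2, Myh11 and Cnn1, median -0.91). Of the other lists, 1 of 4 macrophage markers (Ptprc) and 1 of 5 cardiomyocyte markers (Ryr2) were higher, and 1 of 5 fibroblast markers (Col1a1) and 1 of 6 skeletal muscle markers (Tnnt3) lower. The part of these cell types in the differences with age was not tested. Sgca stood at -0.59 (adjusted p = 0.088) with overlapping arrays. Without the male old adult array, Sgca (-0.94, adjusted p = 0.0049) and Cav3 (-0.74, adjusted p = 0.046) passed, and 3 member probe sets were called in place of 1, with 4.19% of all probe sets. The count was 2 without the female (9.68% of all probe sets) or the mixed (4.57%) young adult array. Among the partners, Sspn fell by 0.95 (adjusted p = 0.014), and Utrn was at 0.80 (adjusted p = 0.076).

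Under the study's own limits (adjusted p under 0.00001, absolute log2 change above 2 and a stage mean above 5) in any embryonic stage against young adult, 4 of the 18 probe sets passed, the lead probe sets of Dmd, Sgca, Cav1 and Cav2. The background was 8.61% of all probe sets and 18.8% of those above 5. Cav1 and Cav2 passed at the 4 stages from E10.5 to E13.5, Sgca at the 7 stages from E10.5 to E16.5 and Dmd, in the opposite direction, at the 6 stages from E14.5 to E19.5.

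Dmd lies on the X chromosome, and the male and female arrays of the 9 stages from E13.5 on were compared with stage as a block. Of the 18 probe sets 0 passed in limma, with 2 at an unadjusted p under 0.05, against 0.0488% of all probe sets called and 7.8% at an unadjusted p under 0.05. The lead Dmd probe set differed by 0.05 (male minus female, 95% interval -0.21 to 0.31). The Dmd probe set 1417307_at was lower in the male of all 9 pairs (-0.23, 95% interval -0.41 to -0.05, adjusted p = 0.56). Cav1 was at -0.20 (95% interval -0.39 to -0.02, adjusted p = 0.61), with the male higher in 2 of 9 pairs. No member's sex difference changed between the embryonic and adult stages at an adjusted p under 0.05; Cav3 came nearest, at 0.80 (adjusted p = 0.077).

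The genes most like each member over the 12 stage means were found among the probe sets above 5. For Cav1 they were Naalad2 (r = 0.996), Rgs5 (r = 0.996) and Ckm (r = 0.995), and for Cav2 Itpkb (r = 0.997), Sparcl1 (r = 0.995) and Gimap4 (r = 0.994). For Cav3 they were Tnni3k (r = 0.961), Perp (r = 0.960) and Dot1l (r = 0.943). Kitl (r = 0.994), Coq10a (r = 0.990) and Crat (r = 0.990) came nearest to Sgca. Carns1 (r = 0.979) and Ndufb11 (r = 0.977) were among the 3 nearest to Sgcb. For Dmd they were 1700100M05Rik (r = 0.989), Cobl (r = 0.984) and Cox5b (r = 0.983), for Dag1 Dph3 (r = 0.992), Ndufa9 (r = 0.988) and Ppp1cb (r = 0.987), for Dysf Mfn2 (r = 0.952), Smg9 (r = 0.941) and Nav3 (r = 0.937), and for the dim Sgcd Dlgap1 (r = 0.945), Cep250 (r = 0.942) and Rusc2 (r = 0.919).

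Between members, the stage means of the lead probe sets correlated highest for Cav1 and Cav2, then for Sgcb with Cav1 (r = 0.93) and Sgca with Cav2 (r = 0.92). Dmd was nearest to Cav3 (r = 0.81) and most opposed to Dag1 (r = -0.80). Within stages, over the 36 deviations of the arrays from their stage means, the pair with the highest r was Dag1 and Cav3 (r = 0.83), whose stage means were opposed (r = -0.53). On the mixed E19.5 array both were low: 8.14 for Dag1 against 8.79 and 8.86 on the female and male arrays, and 7.15 for Cav3 against 7.76 and 7.78. That array also had the highest hybridization control level of its stage, 11.39 against 10.97 and 11.12. The part of such differences between arrays in the correlations within stages was not tested.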

How the data were processed

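Per the labels and the study's methods, RNA of mouse hearts was hybridised to Affymetrix Mouse430 2.0 arrays and the authors deposited 1 table of log2 intensities, normalised by robust multi-array average (RMA; the submitters' processing notes name Affymetrix Expression Console and Partek 6.6). The array annotation's genome build is not given in the sources used here. The table's symbols have lost some letters, so genes were matched by gene ID to RefSeq names. The members and gene lists were chosen with earlier results of these data known. The deposited values were fitted without change in 1 limma model (limma 3.58.1, R 4.3.3) of 12 stage means over 36 arrays, with p-values adjusted by Benjamini-Hochberg over 45101 probe sets. Intervals use the fit's moderated degrees of freedom. Named genes were the 9 members by lead probe set, the 3 most like each by Pearson r, and for each list the 2 largest rises and falls from E10.5 to young adult, besides Sspn, Utrn, Cavin1, Cavin2 and Cavin4. Motifs were counted over the 250 bases before each start. Some genes that this rule names are not reported here. The fit was tested on simulated data. The 3 arrays per stage limit the precision.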

Additional observations from a re-analysis of the deposited data

How the results depend on the processing

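Some members kept their direction under every alternative run and passed under each run that had a test. In young adult against E10.5 they were Cav1, Cav2, Sgca and Sgcb, and in E14.5 against E10.5 Cav1, Cav2 and Dmd. In E19.5 against E14.5 they were Cav1, Cav2, Sgca and Dysf, and in young adult against E19.5 Dmd, Cav3, Sgca and Cav2. The mean of a gene's probe sets was run without a test, so only its direction counts here. The count of member probe sets called in young adult against E19.5 was 5 (with 29.1% of all probe sets called), but 8 with median centring (33%) and 12 with the hybridization controls as a covariate (30.3%). In old against young adult it was 1 (6.96%), but 3 with quantile normalization (7.43%), 2 with median centring (6.69%), 0 with the adult arrays alone (0.0133%) and 2 with the control covariate (4.91%). Leaving out 1 array gave 7 to 10 called in young adult against E10.5, 4 to 7 in E14.5 against E10.5, 4 to 5 in E19.5 against E14.5, 4 to 6 in young adult against E19.5 and 1 to 3 in old against young adult. The cause of these moves was not tested.

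The signs of small differences turned. Cav3 in young adult against E10.5 was 0.32 with quantile normalization, 0.36 with median centring and 0.97 with the control covariate, and Dysf in E14.5 against E10.5 was 0.042, 0.13 and 0.0029. Sgcd with the control covariate was -0.30 in young adult against E10.5, -0.14 in E14.5 against E10.5 and -0.28 in young adult against E19.5, and with median centring -0.13 in old against young adult. Dag1 was -0.20 with age under the control covariate. With the mean of a gene's probe sets, Dag1 was -0.26 in young adult against E10.5 and -0.053 in E19.5 against E14.5, and Sgcb 0.10 with age. Leaving out 1 array, Dag1 (-0.084 to 0.19) and Dysf (-0.0035 to 0.18) in young adult against E10.5, Sgcb (-0.037 to 0.11) and Sgcd (-0.11 to 0.24) in young adult against E19.5, and Dag1 (-0.011 to 0.28), Sgcb (-0.29 to 0.036) and Sgcd (-0.11 to 0.21) with age turned sign. The cause was not tested.

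The sex labels do not mark hearts of the same animals, as hearts were dissected anew at each stage. Deviations of arrays with the same label correlated at a median r of 0.04 (-0.58 to 0.60). With different labels the median r was -0.02 (-0.64 to 0.67). These correlations alone cannot decide whether arrays are paired. With the label as a replicate block, 5 member probe sets were called in E19.5 against E14.5, 6 in young adult against E19.5 and 1 with age. Stages before E12.5 carry no such label. Probe sets with no stage mean above 5, among them Sgcd, are limited by signal.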
